A study of Mus musculus with 6 samples.

Results

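Anpep encodes aminopeptidase N, also called CD13, a zinc enzyme anchored in the cell membrane that removes single amino acids from the amino end of peptides outside the cell. It was followed here with 8 related exopeptidase genes in RNA from mouse embryos collected at the 4-cell stage. The 9 genes, Anpep, Enpep, Lnpep, Npepps, Rnpep, Erap1, Lap3, Dpp3 and Dpp4, were chosen by symbol among the 46072 genes of the count tables, and each matched 1 entry. Anpep was singled out because its RNA was known to be far lower after Son siRNA, so its difference between the groups is given as a description, with no test. The relatives were added with earlier results of these data known.

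The 2 groups were 3 control libraries and 3 libraries of embryos that had received siRNA against Son by microinjection as zygotes. Son encodes a nuclear speckle protein that acts in pre-mRNA splicing. The sources used here do not give the strain, the treatment of the controls or the number of embryos in a library, and nothing says that libraries came from separate litters, so spreads and p-values describe the differences between these libraries. In bulk RNA such as this, fewer cells that make a transcript and less of it per cell cannot be told apart. Total estimated counts were 104634855 to 118865650 units per library, and gene values correlated at a Spearman rho of 0.886 among the controls, 0.904 to 0.908 within the siRNA group and 0.879 to 0.893 for a control with an siRNA library. Son was at 249 to 332 CPM (the count of a gene scaled to the size and composition of its library) in controls and 25.1 to 41 CPM in siRNA libraries. Other cell types were looked for with marker lists. Of 12 cumulus and granulosa markers 5 were at 0 in all 6 libraries, Fshr, Foxl2, Inha, Inhba and Lum, and the summed level of the list was 6.53 to 18 CPM in controls and 19.8 to 27.8 CPM after siRNA, nearly all of it from Amhr2 (means of 11.8 and 23.8 CPM). The part of this difference in the results was not tested. Sums over 6 fibroblast markers, 0.489 to 1.81 CPM in controls and 1.18 to 1.93 CPM after siRNA, over 7 sperm markers, 0.194 to 1.14 and 0.151 to 0.905 CPM, and over 9 blood and macrophage markers, 10.7 to 16.2 and 12.6 to 14.8 CPM, overlapped between the groups, with Col3a1, Dcn, Tnp2, Odf1, Smcp, Ptprc, Cd14, Hbb-bs and Hbb-bt at 0 throughout. The blood and macrophage sum came mostly from Hba-a1 (means of 6.90 CPM in controls and 6.50 CPM after siRNA), Cd68 (4.30 and 2.64 CPM) and Hba-a2 (2.10 and 3.66 CPM). Hba-a1 and Cd68 overlapped between the groups. Hba-a2 was higher in every siRNA library than in any control, without passing the test (edgeR adjusted p = 0.398). The part of these cells in the values of Anpep was not tested. Of 10 maternal transcripts of the early embryo 9 reached a mean of 1 CPM in each group (summed 567 to 1214 CPM in controls and 872 to 1241 CPM after siRNA, mostly Dppa3, with means of 650 and 720 CPM), and of 10 zygotic and pluripotency genes also 9 (2716 to 4257 CPM in controls and 1557 to 1716 CPM after siRNA). The maternal Zp3, Gdf9 and Oosp1 were higher in every siRNA library than in any control, without passing the test, with means of 24.4 and 100.1 CPM for Oosp1. Over all genes tested, 12.1% were higher without overlap. The other maternal genes overlapped between the groups. Means after siRNA were higher for Bmp15, Nlrp5, Dppa3 and H1foo. They were lower for Khdc3 (21.4 and 10.7 CPM), Zar1 (0.817 and 0.349 CPM) and, slightly, Npm2 (64.1 and 63.6 CPM). The zygotic sum came mostly from Dppa2 (means of 2535 and 928 CPM) and Dppa4 (825 and 627 CPM). It was lower in every siRNA library than in any control, as Anpep was. Dppa2, Klf5 and Nanog passed the test downward (edgeR adjusted p = 0.0378, 0.0378 and 0.0402), where 0.899% of all genes tested did. Dppa2, Klf5, Nanog, Dppa4, Pou5f1 (means of 3.54 and 1.01 CPM) and Tead4 (29.2 and 14.5 CPM) were each lower in every siRNA library than in any control. Over all genes tested, 11.6% were lower without overlap. Dppa4, Pou5f1 and Tead4 did not pass the test. Utf1 went the other way without overlap, with means of 10.0 and 19.3 CPM. Sox2, Zfp42 and Tdgf1 overlapped between the groups. The part of the maternal or the zygotic differences in the values of Anpep was not tested.

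Aminopeptidases trim proteins and peptides from the amino end, and their substrates range from hormones at the cell surface to the fragments that the proteasome releases in the cytosol. Anpep, Enpep, Lnpep, Npepps, Rnpep and Erap1 belong to the M1 family of zinc metallopeptidases, whose catalytic zinc is held by a pair of histidines and a more distant glutamate. Lap3 (leucine aminopeptidase, family M17), Dpp3 (a cytosolic zinc enzyme that removes dipeptides) and Dpp4 (a serine peptidase of the cell surface, also called CD26) reach the same peptide ends with other catalytic sites.

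The shared M1 site is shown as coding sequence because it is what makes 6 of the genes a family. The main GENCODE vM21 transcript of each gene (GRCm38) was searched in frame for a histidine codon (CAT or CAC), a glutamate codon (GAA or GAG), 2 codons of any kind, another histidine codon and, after 18 codons of any kind, a glutamate codon. Each of the 6 M1 members had 1 match, and Lap3, Dpp3 and Dpp4 had 0. Among 21519 protein-coding main transcripts, 32 (0.149%) held the whole pattern and 691 (3.21%) held its first part without regard to the distant glutamate. The 72 bases of each match follow, 5′ to 3′, with the codons of the zinc-binding and catalytic residues in capitals.
Anpep: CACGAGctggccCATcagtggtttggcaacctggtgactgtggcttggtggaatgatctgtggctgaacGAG
Lnpep: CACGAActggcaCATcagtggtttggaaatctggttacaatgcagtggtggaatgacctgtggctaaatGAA
Erap1: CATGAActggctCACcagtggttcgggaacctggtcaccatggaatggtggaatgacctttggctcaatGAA
Npepps: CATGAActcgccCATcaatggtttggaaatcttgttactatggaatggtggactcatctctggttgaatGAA
Enpep: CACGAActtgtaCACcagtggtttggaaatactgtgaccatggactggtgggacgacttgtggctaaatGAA
Rnpep: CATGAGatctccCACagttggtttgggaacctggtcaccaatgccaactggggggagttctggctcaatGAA

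Of the 72 bases, 58 were identical to Anpep in Lnpep, 56 in Erap1, 55 in Npepps, 51 in Enpep and 45 in Rnpep, counted position by position. The Anpep stretch begins at codon 387 of the coding sequence and lies on the minus strand at chr7:79838948-79839180, a span of 233 bases. In Anpep, Lnpep (chr17:17568381-17570891, minus), Erap1 (chr13:74663546-74664162, plus), Npepps (chr11:97238229-97240970, minus) and Enpep (chr3:129309082-129309786, minus) the genomic span was longer than 72 bases, so an intron interrupts the site. In Rnpep (chr1:135271575-135271646, minus) the site lies within 1 exon. These stretches identify the genes and were not measured one by one: a count covers a whole gene.

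Anpep (ENSMUSG00000039062, chromosome 7 from 79821803 to 79861059) was at 34.7, 37.2 and 25 CPM in controls 1 to 3 and at 2.36, 1.39 and 2.17 CPM in siRNA libraries 1 to 3. Every control lay far above every siRNA library. The control mean was 32.3 ± 6.45 CPM and the siRNA mean 1.98 ± 0.514 CPM (SD, n = 3 in each group), so the siRNA mean was 6.12% of the control mean, or 16.4-fold lower. The fitted log2 fold change, siRNA minus control, was -4.03 (SE 0.363, 95% interval -4.85 to -3.21). Before scaling these were 2409 to 4232 units in controls and 163 to 288 units after siRNA. No exonic base of Anpep overlaps another annotated gene, and 0% of the 100-base stretches of its main transcript occur in another gene's transcripts.

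**Figure D1:**
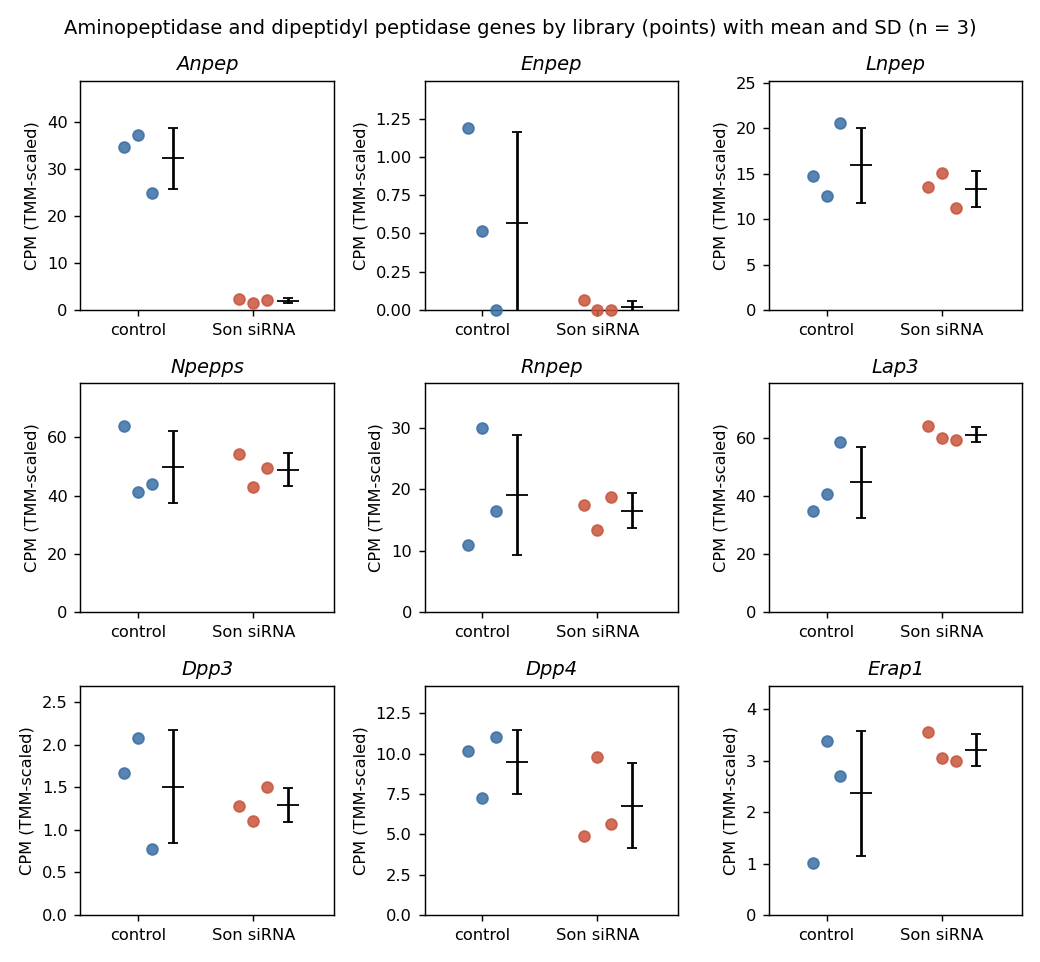
Level of each of the 9 genes in CPM (TMM-scaled, linear axes from 0, a separate axis per gene), with 1 point per library and the mean and SD of 3 libraries beside them. Anpep falls from 25 to 37.2 CPM in controls to 1.39 to 2.36 CPM after Son siRNA, while the points of the other tested genes overlap between groups except for Lap3.

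Enpep encodes glutamyl aminopeptidase, or aminopeptidase A, a surface enzyme that removes acidic residues and turns angiotensin II into angiotensin III, on which aminopeptidase N acts next. It was at 1.19, 0.519 and 0 CPM in controls and at 0.0660, 0 and 0 CPM in siRNA libraries, from 114, 59 and 0 units and 8, 0 and 0 units. Control 3 had none, so the groups touch at 0. Enpep did not pass the filter on low counts and has no value in the fit. If 4 units are 1 read pair, the 8 units are 2 read pairs, and a library at 0 allows up to 3 read pairs, which is 0.0906 to 0.125 CPM depending on the library. Intervals and floors of this kind cover counting error only. At this depth a difference in Enpep could not be told from the spread of the controls.

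Dpp4 and Lnpep are the remaining cell surface members. Dpp4, which removes dipeptides after proline or alanine from chemokines and incretins, was at 10.2, 7.27 and 11 CPM in controls and at 4.89, 9.76 and 5.63 CPM after siRNA. Libraries 1 and 3 of the siRNA group lay below every control, and library 2 lay among them. Its log2 fold change was -0.49 (SE 0.382, 95% interval -1.35 to 0.37), and 3.67% of its exonic bases overlap Gm13561 on the other strand. Lnpep encodes the oxytocinase, or insulin-regulated aminopeptidase, which cycles between vesicles and the surface. It had 12.6 to 20.5 CPM in controls and 11.2 to 15.1 CPM after siRNA, ranges that overlap, with a log2 fold change of -0.26 (SE 0.312, 95% interval -0.97 to 0.45).

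None of the cytosolic members Npepps, Dpp3 and Rnpep passed the test. Npepps, the puromycin-sensitive aminopeptidase that trims peptides from the proteasome, was at 63.9, 41.2 and 44.0 CPM in controls and 54.2, 43.0 and 49.3 CPM after siRNA, and its siRNA values all lay within the control range. Its log2 fold change was -0.03 (SE 0.260, 95% interval -0.61 to 0.56). Dpp3 was low, at 0.779 to 2.08 CPM in controls and 1.10 to 1.5 CPM after siRNA (log2 -0.22, SE 0.585, 95% interval -1.54 to 1.10), an interval too wide to place it. Rnpep, aminopeptidase B, which removes arginine and lysine and can also be secreted, was at 11, 30.0 and 16.4 CPM in controls and 17.5, 13.3 and 18.8 CPM after siRNA. Control 2 alone carried the high Rnpep value, and without it the log2 fold change went from -0.21 (SE 0.393, 95% interval -1.10 to 0.68) to 0.27. In Rnpep 5.27% of exonic bases overlap Gm26642 on the other strand, and 7.99% of the 100-base stretches of its main transcript, on either strand, occur in that gene. No source used here says that the counting used strand, so reads of the pair may not be separated.

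Lap3 was the member whose groups lay apart in the upward direction. It had 35.0, 40.8 and 58.5 CPM in controls and 64.0, 60.1 and 59.2 CPM after siRNA, means of 44.8 ± 12.2 and 61.1 ± 2.55 CPM (SD, n = 3 each). Control 3 came within 1 CPM of the lowest siRNA library, so the separation rests on a small gap, and the log2 fold change was 0.45 (SE 0.259, 95% interval -0.14 to 1.04). Over all 17788 genes tested, 23.7% had groups without overlap and 12.1% had them with siRNA higher. Erap1, which trims peptides in the endoplasmic reticulum for MHC class I, was at 1.01, 3.38 and 2.70 CPM in controls and 3.56, 3.06 and 2.99 CPM after siRNA (log2 0.44, SE 0.516, 95% interval -0.73 to 1.61). Only control 1 was clearly lower, and without it the log2 fold change was 0.08. Of the exonic bases of Erap1 11.5% are shared with Cast on the other strand, so part of its counts may belong to Cast.

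In the fit across all genes (the quasi-likelihood F-test of edgeR, p-values adjusted by Benjamini-Hochberg), 1 of the 8 tested members, Anpep, was past an adjusted p of 0.05, in the downward direction, and 0 were past it upward. The background was 0.989% of the 17788 genes past in either direction, 0.899% past and lower and 0.0899% past and higher. Since Anpep was chosen on this contrast, nothing is read from that count. The other 7 tested members had log2 fold changes from -0.49 to 0.45 and edgeR adjusted p from 0.48 to 0.981. Their 95% intervals, given as a description, ran from -1.54 at the lowest to 1.61 at the highest, and none of them reached the interval of Anpep. With Anpep included, whose direction was known when it was chosen, the fold change was below 0 for 6 and above 0 for 2 of the 8, with a median of -0.22. Over all genes tested 48.7% were below 0 and the median was 0.02. Nothing is read from these signs. The signs of Lnpep, Npepps, Rnpep and Dpp3 became positive when libraries were scaled by total counts alone, which raised the median of all genes by 0.29, and that of Npepps, close to 0, also with upper-quartile scaling. Those of Anpep, Dpp4, Lap3 and Erap1 were the same under each of 4 scalings.

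**Figure D2:**
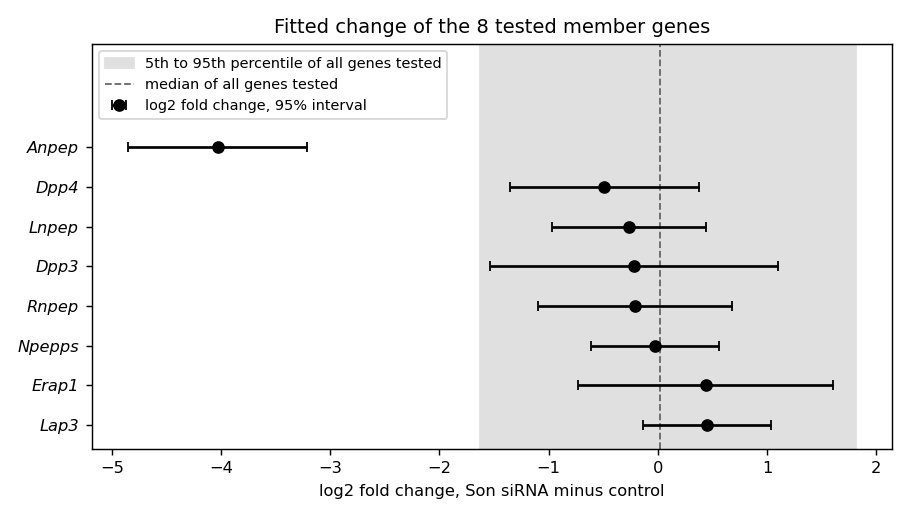
Log2 fold change, siRNA minus control, of the 8 members that passed the filter, with 95% intervals from the fit; the grey band spans the 5th to 95th percentile of all genes tested and the dashed line is their median. Anpep lies at -4.03, left of the band, and the other 7 intervals all include 0.

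The spread between libraries was smaller after siRNA for 6 of the 8 tested members, and for 71.8% of all genes tested. On the log2 scale (with 0.1 CPM added) the SD of Erap1 was 0.876 in controls and 0.134 after siRNA, that of Rnpep 0.724 and 0.259, and that of Lap3 0.378 and 0.0595. Anpep and Dpp4 were the exceptions, with SDs of 0.305 and 0.388 for Anpep and 0.315 and 0.519 for Dpp4.

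Levels were compared between genes only after division by the length of the main transcript, as CPM per kb. In controls the order was Lap3 (19.7 ± 5.38 CPM per kb), Npepps (11.8 ± 2.94), Anpep (8.51 ± 1.7), Rnpep (8.37 ± 4.27), Dpp4 (1.80 ± 0.373), Lnpep (1.32 ± 0.342), Dpp3 (0.562 ± 0.247), Erap1 (0.419 ± 0.216) and Enpep (0.136 ± 0.142; SD, n = 3 each). Neighbours whose 3 control values did not overlap were Lap3 and Npepps, by a narrow gap from 15.5 down to 15.2, then Rnpep and Dpp4, and Lnpep and Dpp3. The ranges of Npepps and Anpep, Anpep and Rnpep, Dpp4 and Lnpep, Dpp3 and Erap1, and Erap1 and Enpep overlapped, so their order is not resolved. With the union of all annotated exons as the length, Anpep stood above Npepps, and Erap1 stood above Dpp3.

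After siRNA Anpep was at 0.520 ± 0.135 CPM per kb and had moved from the 4 most abundant genes of the set to the level of Erap1 (0.568 ± 0.0557) and Dpp3 (0.482 ± 0.0749), with which its values overlapped. The nearness to Dpp3 depends on the length used. With the union of all annotated exons, the means after siRNA were 0.478 for Anpep, 0.440 for Erap1 and 0.167 CPM per kb for Dpp3. Lap3, at 27.0 ± 1.13 CPM per kb, and Npepps, at 11.6 ± 1.33, remained first and second. Among the 4 cell surface members, Anpep, Enpep, Lnpep and Dpp4, Anpep made up 63.4% to 79.4% of the summed CPM per kb in controls and 10.6% to 23.1% after siRNA. Of the sum over all 9 genes it made up 12.1% to 18.7% in controls and 0.780% to 1.18% after siRNA, and that sum itself was 48.8 to 54.6 CPM per kb in controls and 47.0 to 52.5 CPM per kb after siRNA. The total of the set therefore overlapped between groups. Means in controls and after siRNA were 8.51 and 0.520 CPM per kb for Anpep, and 19.7 and 27.0 CPM per kb for Lap3. Lap3 did not pass the test (edgeR adjusted p = 0.48), and whether it made up for Anpep in the total was not tested.

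**Figure D3:**
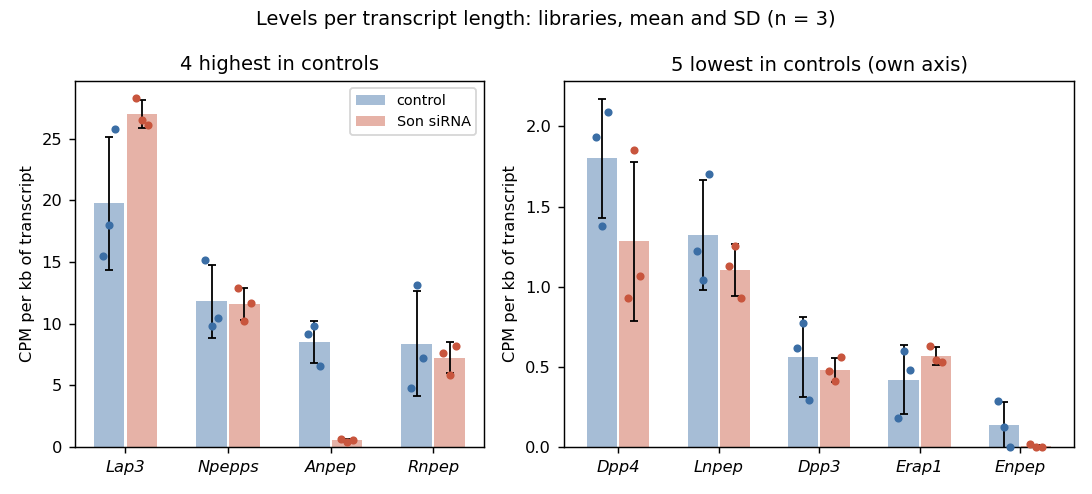
CPM per kb of main transcript in control (blue) and Son siRNA (red) libraries, as mean bars with SD and 1 point per library; the 5 lowest genes have their own axis. Anpep stands beside Rnpep in controls, at 8.51 and 8.37 CPM per kb, and at 0.520 CPM per kb after siRNA.

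The members also differ in gene structure. Each is a multi-exon gene, with 11 exons in the main transcript of Rnpep, 13 in Lap3, 18 in Lnpep and Dpp3, 19 in Erap1, 20 in Enpep, 21 in Anpep, 23 in Npepps and 26 in Dpp4, against a median of 7 over protein-coding genes. Anpep has the shortest introns of the 9, with a median of 365 bases, which is at the 13.2 percentile of protein-coding genes tested. Dpp3 follows with 670 bases, and the other 7 have medians from 1108 to 2200 bases. GC content of the main transcript was 53.3% in Anpep, 56.7% in Dpp3 and 56.6% in Rnpep, and 40.3% to 47.9% in the other 6.

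The 5 genes whose pattern over the 6 libraries was most like that of Anpep, by the root mean square difference of log2 CPM after centring each gene on its own mean, among 7188 protein-coding genes with at least 5 CPM in a group, were Ren1 (0.431), Son (0.494), Cbr2 (0.506), Aim2 (0.578) and Ubxn11 (0.617). All 5 were lower in every siRNA library than in any control, which the measure favours, since most of the pattern of Anpep is the difference between the groups. Ren1, which encodes renin, was at 4.50, 9.68 and 3.64 CPM in controls and 0.470, 0.256 and 0.189 CPM after siRNA. Control 2 was the highest library for Ren1 as it was for Anpep. No function or control in common is inferred from the likeness.

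The wider peptidase genes were taken from 3 lists of 62 symbols, of which 61 are in the files and 51 were tested. By edgeR 0 of the 51 passed the threshold in either direction, 7 had an unadjusted p under 0.05, and DESeq2's Wald test called 4 lower and 1 higher. The fold change was below 0 for 29 and above 0 for 22, with a median of -0.10, which became 0.23 with total-count scaling. Over all genes tested, 0.989% passed by edgeR and 14.7% had an unadjusted p under 0.05. DESeq2 called 8.99% of the 13605 genes to which it gave an adjusted p (6.25% lower and 2.74% higher). These shares are the background for the counts of each list, and nothing particular to a list is read from them.

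Among the other M1 genes, 5 of 5 matched entries were tested and 0 passed edgeR's threshold (1 at an unadjusted p under 0.05, 1 called by DESeq2). The Riken-named gene 2010111I01Rik, listed by RefSeq as Aopep, encodes aminopeptidase O. It was at 5.19, 8.99 and 4.07 CPM in controls and 2.11, 2.19 and 1.68 CPM after siRNA, without overlap (log2 -1.61, SE 0.436, edgeR adjusted p = 0.124). Lvrn, laeverin, was low, at 1.18, 0.211 and 1.34 CPM in controls and 0, 0.0342 and 0.272 CPM after siRNA (log2 -3.14, SE 1.55, edgeR adjusted p = 0.393), and that fitted value rests in part on a library at 0. The list median of -1.61 is the value of aminopeptidase O itself. It turned to 0.77 with at least 50 counts in 3 libraries and to 0.76 with counts divided by 4, settings that kept 3 of the 5 genes.

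Of 25 other intracellular peptidases, all tested, 0 passed by edgeR, 4 had an unadjusted p under 0.05 and DESeq2 called 2 lower. The median was -0.19. Prcp, a lysosomal enzyme that removes residues after proline and also cuts angiotensin II, was at 19.7 to 23.7 CPM in controls and 8.47 to 11.6 CPM after siRNA (log2 -1.07, SE 0.285, edgeR adjusted p = 0.120). Ctsc, dipeptidyl peptidase 1 of the lysosome, was far more abundant, at 2415 to 3144 CPM in controls and 1560 to 1955 CPM after siRNA (log2 -0.70, SE 0.195, edgeR adjusted p = 0.132). Of 31 other cell surface peptidases 21 were tested, 0 passed by edgeR, 2 had an unadjusted p under 0.05 and DESeq2 called 1 lower and 1 higher, with a list median of -0.04. Naalad2, a glutamate carboxypeptidase-like enzyme, was at 321 to 467 CPM in controls and 190 to 203 CPM after siRNA (log2 -1.02, SE 0.209, edgeR adjusted p = 0.0625). It passed with the stricter filter of 50 counts in 3 libraries, with counts divided by 4 and without control 2. Ece2, an endothelin-converting enzyme, was at 24.9 to 41.1 CPM in controls and 64.2 to 86.1 CPM after siRNA (log2 1.04, SE 0.277, edgeR adjusted p = 0.120).

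The renin-angiotensin genes are the pathway in which aminopeptidases N and A act on the same hormone. Of 13 genes 4 were tested, and 2 of them fell by edgeR's test, Ren1 and Ctsa, with 0 higher, where 0.899% of all genes tested were called lower. The list median of -2.83 rests on those 4 genes and was -0.71 over 9 genes without the filter on low counts. For Ren1 the log2 difference was -4.28, with SE 0.622 and edgeR adjusted p = 0.025, and the call was lost with total-count scaling (adjusted p = 0.0629). Ctsa, cathepsin A, a lysosomal carboxypeptidase, was at 77.1, 86.5 and 53.1 CPM in controls and 11.4, 12 and 9.09 CPM after siRNA (log2 -2.74, SE 0.291, edgeR adjusted p = 0.0122). Both calls were lost with the replicate number as a block (edgeR adjusted p = 0.0732 for Ren1 and 0.0617 for Ctsa) and without any 1 of the 3 siRNA libraries. In each of those settings edgeR called 0 genes in all. Of the rest, Agt, the precursor of angiotensin, was at 0 in 5 libraries and at 0.106 CPM in siRNA library 3, and the receptor genes Agtr1a and Agtr2 were at 0 in all 6, while Agtr1b was at 1.06 CPM in control 3 alone. Atp6ap2, the prorenin receptor, was at 241 to 421 CPM in controls and 195 to 242 CPM after siRNA (log2 -0.71, SE 0.250, edgeR adjusted p = 0.223). The list was drawn up with earlier results of these data known and is no independent evidence of its direction.

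Erap1 works with the MHC class I peptide loading genes. Of 15 such genes 13 were tested, 0 passed by edgeR, 5 had an unadjusted p under 0.05 and DESeq2 called 1 higher and 1 lower, with a list median of -0.03 (0.25 with total-count scaling). Over all genes tested, 0.989% passed by edgeR and 14.7% had an unadjusted p under 0.05. DESeq2 called 8.99% of the genes to which it gave an adjusted p. Nothing particular to this list is read from its counts. Psmb10, an immunoproteasome subunit, was at 5.94 to 8.90 CPM in controls and 16.1 to 16.8 CPM after siRNA (log2 1.24, SE 0.310, edgeR adjusted p = 0.104). H2-D1, a class I heavy chain whose reads can be split among near-identical genes, was at 3.0 to 5.58 CPM in controls and 1.05 to 1.59 CPM after siRNA (log2 -1.71, SE 0.455, edgeR adjusted p = 0.120).

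**Figure D4:**
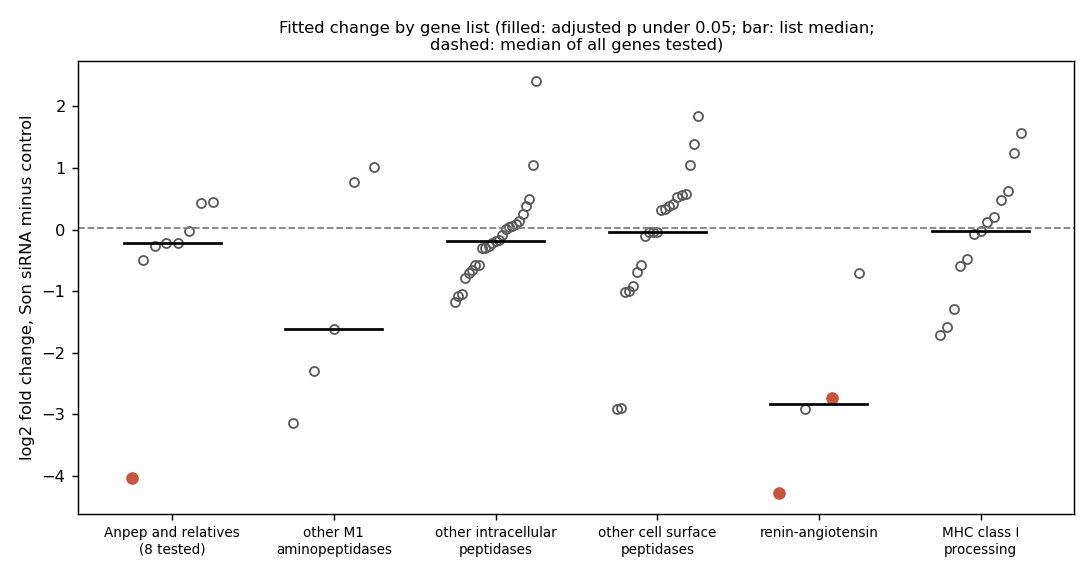
Log2 fold change, siRNA minus control, of each tested gene in the set of Anpep and its relatives and in 5 further lists, with filled points for an edgeR adjusted p under 0.05, a bar at each list median and a dashed line at the median of all genes tested. Filled points are Anpep, Ren1 and Ctsa. Anpep was chosen on this contrast, so its filled point is a description and not a test.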

How the data were processed

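Each library has its own table of 46072 genes. Its values are estimated counts as the authors deposited them, whole numbers that were not normalized. HISAT2 2.0.5, StringTie 1.3.3b and GRCm38 are named, per the submitters' processing notes. Libraries were made by Smart-Seq2, per the labels' protocols. The sources used here do not give the counting script, read length, strand setting or annotation release. Low counts were multiples of 4 in 26.4% to 32.4% of values from 1 to 40, against 25% if those values were equally frequent. The count floors assume that a read pair adds 4 units, which this small excess does not establish. Counts were used as deposited, with no rounding needed.

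Genes kept by filterByExpr (17788) were fitted with edgeR 4.0.16 in R 4.3.3 (TMM, glmQLFit, glmQLFTest, Benjamini-Hochberg, threshold 0.05, no block). Library totals were 104634855 to 118865650 units. Intervals of fold changes are the fit's 95% intervals. By Ensembl identifier 45223 genes matched GENCODE vM21, used for coordinates, lengths and sequences. The fit was tested on simulated data. Alternatives were DESeq2 1.42.0 and its size factors, total-count and upper-quartile scaling, other filters, counts divided by 4, a replicate block and leaving out each library. Members, lists and the rule for named genes (Son, the members, genes past the threshold in a list or else the 2 with the smallest p, and the 5 profiles nearest Anpep) were chosen with earlier results of these data known. Agt, Agtr1a, Agtr1b, Agtr2 and Atp6ap2 fall outside that rule and were picked after their values were seen.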

Additional observations from a re-analysis of the deposited data

How the results depend on the processing

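Anpep was chosen on this contrast, so its values are a description: its log2 fold change ran from -4.18 to -3.74 over 14 alternatives. By edgeR it was not past the threshold without siRNA library 1, 2 or 3 (adjusted p = 0.169, 0.0709 and 0.136) or with the replicate number as a block (adjusted p = 0.0617), settings in which edgeR called 0 genes in all, with 1786, 2348, 1733 and 1997 genes at an unadjusted p under 0.05. The other 7 tested members were not past in any of the 14. Signs of Lap3, Erap1 and Dpp4 were kept in all 14; Lnpep turned with total counts, Npepps with total counts, upper-quartile scaling, without control 1 and without siRNA library 2, and Rnpep and Dpp3 with total counts and without control 2.

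Over all genes edgeR called 176, against 42 with total-count scaling, 100 without a filter, 288 with 50 counts in 3 libraries, 330 with counts divided by 4, 0 with the replicate block and 1223 by DESeq2; leaving out 1 library gave 0 to 315. In the wider peptidase list, where edgeR called 0, the count was 1 with 50 counts in 3 libraries, 1 with counts divided by 4, 5 by DESeq2 and 0 to 1 leaving out 1 library. The cause of these differences was not tested. Same-numbered libraries did not deviate together (correlations of -0.173, -0.222 and 0.0652), so the numbers were not taken to pair them. Enpep had a value only where it passed the filter, with edgeR adjusted p from 0.239 to 0.716 and a fitted fold change that rests on zeros. Enpep and Lvrn had libraries at 0, where the floor is 0.0906 to 0.125 CPM.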

Other observations

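Anpep combines many exons with short introns, and genes of that build were counted across the series, with bounds chosen after the values of Anpep had been seen and with no test. Of 14013 protein-coding genes tested, 639 had at least 15 exons and a median intron of at most 500 bases. Over all 14013 genes, 143 (1.02%) were lower and 15 higher by edgeR, 1377 and 913 at an unadjusted p under 0.05, and 743 and 341 by DESeq2, with a median log2 fold change of 0.03 and 48.3% below 0. In the 639 the median was -0.33 and 63.1% were below 0. By edgeR 13 (2.03%) of them were lower, counting Anpep, which set the bounds, and 0 were higher (109 lower and 19 higher at an unadjusted p under 0.05, 68 and 9 by DESeq2). Another 2917 genes had at least 15 exons and longer introns, with a median of 0.04, 47.0% below 0, and 12 (0.411%) lower and 2 higher by edgeR. With total-count scaling the medians of these classes were -0.06 and 0.34, against 0.32 over all 14013 genes. The classes also differed in GC content of the transcript (median 56.8% and 48.4%) and in level (median 2.09 and 7.79 CPM), and the part of either in these values was not tested.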
